A study of Homo sapiens with 14 samples.

Results

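The 39 HOX genes were described in fibroblasts made senescent with a small molecule. The members are every gene symbol that begins with HOXA, HOXB, HOXC or HOXD and ends in a number, which gave 39 of the 54628 symbols in each deposited file (11 HOXA, 10 HOXB, 9 HOXC and 9 HOXD genes). The rule itself uses no expression value, but it was chosen with earlier results of these data known. In 10 ICM-treated libraries HOXA2, HOXA3 and HOXB4 lay below every untreated library, as did 8.72% of all genes tested. HOXB2, HOXB5, HOXB6, HOXB8 and HOXC8 were lower than in wild-type cells in 1 pair of ICM libraries and higher in the other pair than in that one. After knockdown of CTCF no HOX gene passed the test, and neither did any other gene.

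HOX genes encode homeodomain transcription factors that give cells a position along the head-to-tail axis and, in limbs and genitalia, along the near-to-far axis. They lie in 4 clusters, named A to D, and genes at the same place in different clusters (paralogs) share a number. Low numbers are used towards the head and high numbers towards the tail and the limb tips, and adult fibroblasts keep the HOX pattern of the site they came from. Polycomb proteins keep silent HOX genes off, Trithorax proteins keep active ones on, retinoic acid activates the low-numbered end of a cluster, and CTCF binds at borders inside the clusters. In the lung, HOXA5 is needed for airway and lung development, and HOXB5 is known for its part in airway branching.

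RNA was sequenced from IMR90 cells, human fetal lung fibroblasts, in 14 libraries of 7 groups with 2 libraries each. The treatment was 10 µM inflachromene (ICM), a compound that binds HMGB proteins, given for up to 6 days to induce senescence. The 4 untreated libraries are wild-type cells (WT 1 and 2) and cells with a knockdown of HMGB2, a chromatin protein (siHMGB2 1 and 2). The 10 treated libraries are cells with ICM alone (ICM 1 to 4) and cells with ICM plus knockdown of SRRM2, a protein of nuclear speckles (siSRRM2), of BANF1, a DNA-bridging protein of the nuclear envelope (siBANF1), or of CTCF, a DNA-binding protein that helps fold chromosomes (siCTCF). The labels name 2 cell isolates, I79 and I83 at passage 5, without saying which library came from which, and they do not say whether replicates were separate cultures, so p-values measure only the spread between these libraries. The label fields of ICM 3, ICM 4 and both siCTCF libraries give other cell line names (IMR91 to IMR94) than their titles, which say IMR90. These 4 libraries are called the second set and ICM 3 and 4 are kept apart from ICM 1 and 2. The second set has no untreated library, so in every comparison of ICM 3-4 with WT or with ICM 1-2 the treatment and the set cannot be told apart.

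The libraries held 22336161 to 58257456 gene counts, of which 4991 to 12226 fell on HOX genes. Values are in CPM (a gene's counts scaled to the library's total of gene counts). They depend on transcript length, so genes are ranked against each other only per kilobase of exon. In bulk RNA, fewer cells with a transcript and less of it per cell cannot be told apart. ICM 1 and ICM 2 stood far apart: over the 19126 genes tested their median absolute log2 difference was 0.79, against 0.19 for the WT pair, 0.40 for ICM 3 and 4 and 0.10 for the siSRRM2 pair. ICM 1 was nearer to siBANF1 1 (0.41) and ICM 2 nearer to siBANF1 2 (0.18) than to each other, and likewise ICM 3 was nearer to siCTCF 1 (0.20) and ICM 4 to siCTCF 2 (0.15). No pair of replicates agreed within sampling noise, the smallest excess being 2.45-fold for siSRRM2. HMGB2 was 3.18 and 3.52 CPM in siHMGB2 against 27.7 and 28.0 in WT. CTCF was 71.5 and 23.0 CPM in siCTCF 1 and 2 against 94.9 and 91.9 in ICM 3 and 4, so the fall was much larger in siCTCF 2. For the libraries labelled siSRRM2, SRRM2 stood at 76.1 and 76.4 CPM, and for those labelled siBANF1 at 59.0 and 17.0, against 238 and 112 in ICM 1 and 2. BANF1 was not lower in the libraries labelled siBANF1 (17.0 and 36.7 CPM) than in ICM 1 and 2 (13.5 and 32.7), so the data go against the label siBANF1, and both groups are named by their labels only. The names of the deposited files for these 4 libraries also give the other of the 2 knockdowns than the labels do, so the 2 groups may be exchanged, and no siSRRM2 or siBANF1 value below can be tied to the knockdown of 1 named gene. Fibroblast markers summed to 26433 to 34436 CPM in WT, 5019 and 20675 in ICM 1-2 and 2453 and 4994 in ICM 3-4, and all 12 lung epithelial markers were under 1 CPM in every library. The part of these shifts in the HOX values was not tested.

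The active HOX genes were those with low and middle paralog numbers, in the A, B and C clusters. Of the 39 members, 16 reached a group mean of 1 CPM, namely 6 HOXA genes (among them HOXA2, HOXA3, HOXA4, HOXA5 and HOXA7), 7 HOXB genes (HOXB2 to HOXB8) and 3 HOXC genes (HOXC6, HOXC8 and HOXC9). The other 23 stayed under 1 CPM in every group. Of these, 12 had a count in some library and 11 had none in any of the 14, which allows up to 0.00557 CPM over all libraries and 0.0515 to 0.134 CPM in a single one (3 counts, covering counting error only). The HOXD cluster, whose high-numbered members such as HOXD13 pattern the digits, was close to silent: 7 of its 9 genes had no count and the whole cluster had 4 counts in all libraries together. Of the 16 members with paralog numbers 9 to 13, 7 had no count, and these 16 genes made up 0.155% to 1.40% of HOX counts in a library.

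**Figure D1:**
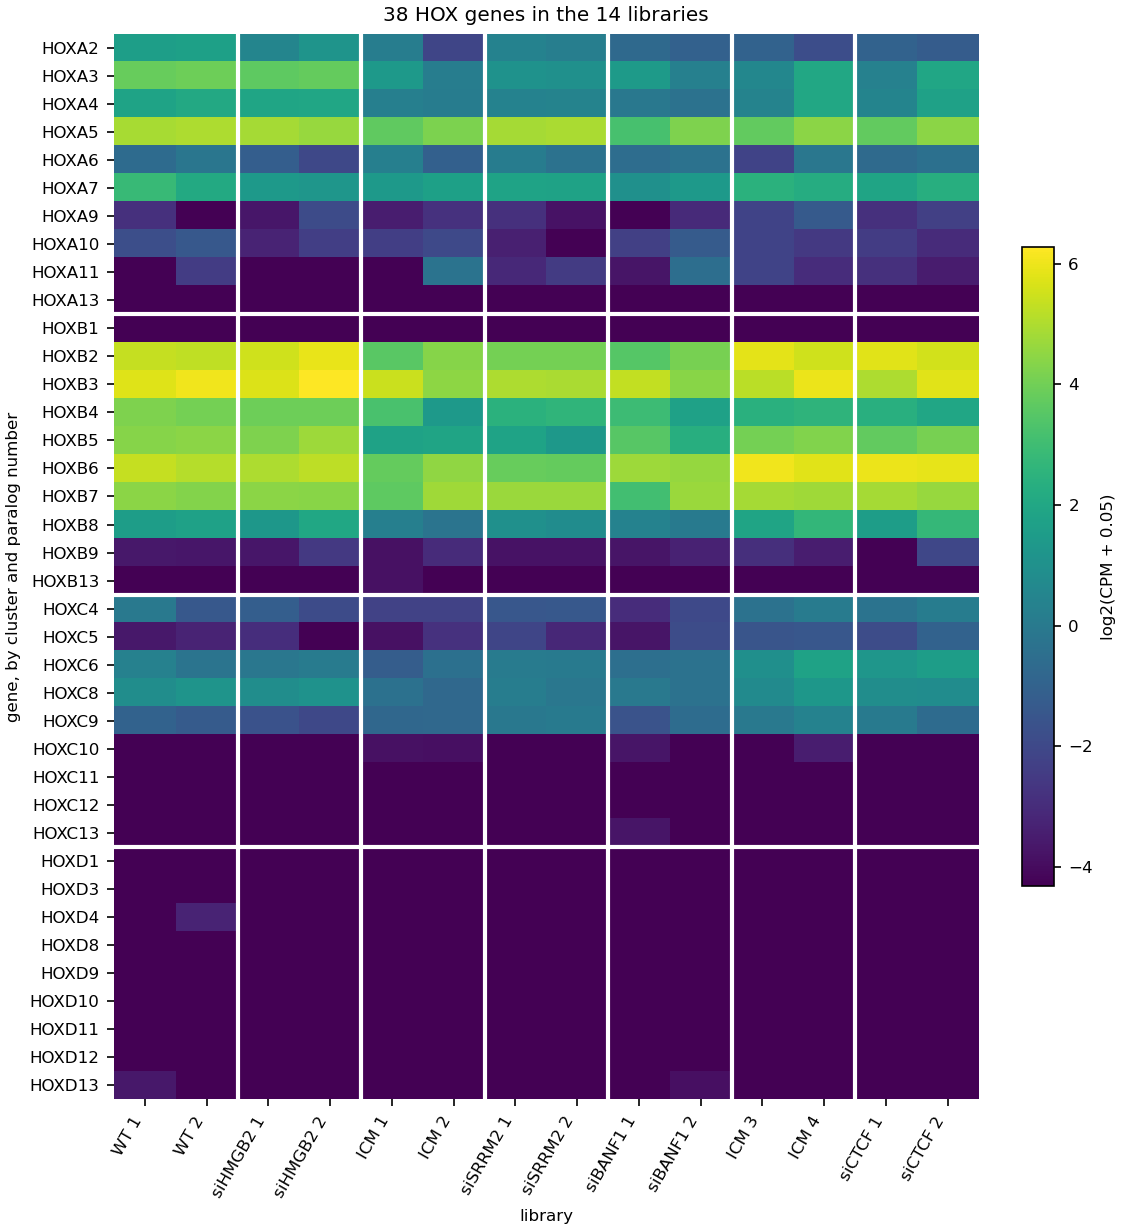
Level of 38 of the HOX genes (rows, by cluster and paralog number) in each library (columns), as log2(CPM + 0.05). HOXB2 to HOXB7 and HOXA5 are the brightest rows, and the HOXD block is dark in all 14 libraries.

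The HOXB cluster, at chr17:48528526-48729178 (GRCh38, GENCODE v29, 200.7 kb), supplied 68.7% to 87.5% of HOX counts. The HOXA cluster, at chr7:27092993-27200106 (107.1 kb), gave 9.88% to 29.05%. The HOXC cluster, at chr12:53938765-54056030 (117.3 kb), gave 1.18% to 3.11%. HOXB therefore led in all 14 libraries, with HOXA next. In WT, the level per kilobase was highest for HOXA5 (17.9 ± 0.648 CPM per kb, SD, n = 2), followed by HOXB2 (16.8 ± 0.703), HOXB6 (14.3 ± 1.60) and HOXB7 (13.4 ± 0.848). HOXB6 and HOXB7 overlapped between the 2 libraries, while HOXA5 lay above HOXB2 and HOXB2 above HOXB6 in both. In ICM 1-2 the first place was HOXB7 (12.9 ± 6.61 CPM per kb), whose range overlapped that of HOXA5 (9.14 ± 2.34). In ICM 3-4 it was HOXB6 (23.5 ± 3.20), overlapping HOXB2 (22.2 ± 3.41), with HOXA5 at rank 4 (10.2 ± 3.51).

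**Figure D2:**
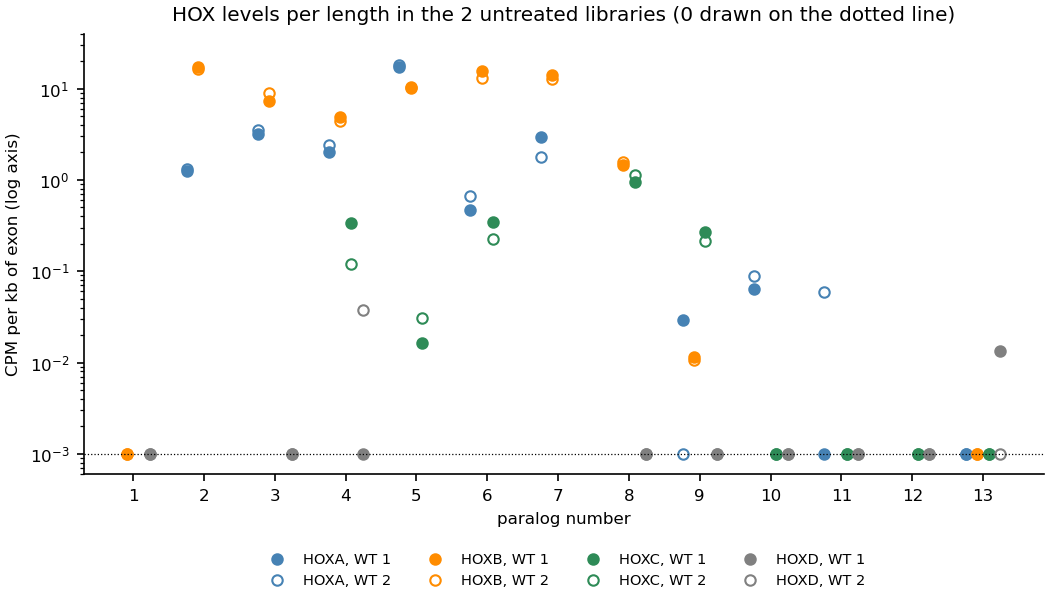
CPM per kilobase of exon (log axis) against paralog number in the 2 WT libraries for 38 HOX genes, with the cluster in colour and WT 2 as open circles. Levels are highest between paralogs 2 and 7 and a gene with no count is drawn on the dotted line.

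ICM treatment in the first set went with a lower HOX level. The 39 genes summed to 263 and 265 CPM in WT 1 and 2 and to 121 and 128 in ICM 1 and 2, so the groups did not overlap. By cluster, HOXA summed to 60.8 ± 1.34 CPM in WT and 25.6 ± 2.22 in ICM 1-2, HOXB to 199 ± 0.868 and 96.7 ± 2.80, and HOXC to 4.06 ± 0.499 and 1.96 ± 0.168 (SD, n = 2). Genes were tested with edgeR's quasi-likelihood test, with p-values adjusted by Benjamini-Hochberg over all 19126 genes that passed a filter on low counts, and a gene is called here at an adjusted p under 0.05. Of the 39 HOX genes, 21 passed that filter. In ICM 1-2, 7 of the 21 were called lower than in WT and 0 higher, where 13.5% of all genes tested were called in either direction. The median log2 fold change was -1.13 over the 21 genes and 0.10 over all genes.

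HOXB5, a factor of airway branching and of gut neurons, moved most among the HOXB genes. It was 20.6 and 21.5 CPM in WT 1 and 2 and 3.40 and 3.56 in ICM 1 and 2. The 2 ICM libraries agreed closely for this gene although they stood apart over all genes. Its log2 fold change was -2.73 (SE 0.43, adjusted p = 0.00373, edgeR). HOXB2, which patterns the hindbrain, fell by 1.44 on the log2 scale (SE 0.29, adjusted p = 0.0118, edgeR), from 40.4 and 38.1 CPM to 11.8 and 20.2. HOXB6 went from 40.2 and 34.3 CPM to 13.6 and 22.6 (log2 fold change -1.20, adjusted p = 0.0166, edgeR). HOXB8, a gene best known for blocking the maturation of myeloid cells when overexpressed, went from 2.98 and 3.26 CPM to 1.15 and 0.79 (-1.81, adjusted p = 0.0335, edgeR). All these genes were lower in both ICM libraries than in either WT library.

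Not every active HOXB gene followed. HOXB7, the neighbour of HOXB6 and HOXB8, was 21.4 and 19.6 CPM in WT and 12.6 and 26.9 in ICM 1 and 2, so the WT values lay between those of the 2 ICM libraries. Its log2 fold change was -0.21, with a 95% interval from -1.14 to 0.71, which holds a fall as well as a rise. HOXB4, known for expanding blood stem cells, was 18.4 and 16.6 CPM in WT and 9.26 and 2.60 in ICM 1 and 2. Both ICM values were lower, but they differed so much that the change was not called (-1.66, adjusted p = 0.0802, edgeR). HOXB3, the HOXB gene with the most counts in WT, was 54.4 and 66.3 CPM in WT and 42.8 and 22.0 in ICM 1 and 2 (-1.01, adjusted p = 0.162, edgeR).

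In the HOXA cluster, HOXA3, which is needed for the thymus and the parathyroid glands, changed most. It was 13.9 and 15.1 CPM in WT and 2.56 and 1.07 in ICM 1 and 2, a log2 fold change of -3.10 (SE 0.68, adjusted p = 0.0162, edgeR). HOXA4 was 3.52 and 4.20 CPM in WT and 1.13 and 1.03 in ICM 1-2 (-1.96, SE 0.53, adjusted p = 0.0362, edgeR). HOXA2, which patterns the hindbrain and the second branchial arch, was 3.07 and 3.24 CPM in WT against 1.09 and 0.18 in ICM 1 and 2. With those ICM values so far apart, HOXA2 just missed the threshold (-2.40, adjusted p = 0.0509, edgeR), as did HOXA5 (29.8 and 31.3 CPM in WT, 12.8 and 18.4 in ICM 1-2, -1.12, adjusted p = 0.0536) and HOXA7 (7.06 and 4.25 CPM in WT, 2.52 and 3.19 in ICM 1-2, -1.13, adjusted p = 0.0527). Of the HOXC genes, HOXC8, a gene of thoracic identity, fell from 1.79 and 2.17 CPM to 0.72 and 0.55 (-1.76, SE 0.41, adjusted p = 0.0206, edgeR). HOXC6 was 1.22 and 0.80 CPM in WT and 0.39 and 0.70 in ICM 1-2, and HOXC9 0.45 and 0.36 in WT and 0.53 and 0.55 in ICM 1-2, and neither was called.

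The count of 7 depended on single libraries and on the fit. It was 1 without WT 1 and 1 without WT 2, 3 without ICM 2 and 9 without ICM 1, where the count over all 19126 genes went from 2582 to 563, 545, 1722 and 3612, each of these fits resting on a lone library in 1 arm that is assumed to vary like the other groups. HOXB5 was called in all 4 of those fits. The count was 0 when only the 4 compared libraries were fitted, where 33 of 19117 genes were called in all, and 11 with DESeq2, where 3873 of 33733 were called. The share of counts on the summary lines, which belong to no single gene, was higher in ICM 1-2, where the HOX sums were low, than in WT or ICM 3-4. It was 17.5% and 17.9% in WT, 35.2% and 26.5% in ICM 1 and 2 and 13.1% and 14.3% in ICM 3 and 4. Within it, the share of reads ambiguous between genes moved from 1.62% and 1.72% in WT to 4.43% and 6.73% in ICM 1-2 (1.91% and 1.81% in ICM 3 and 4), and the part of either share in the HOX values was not tested. The ambiguous share bears on HOXA7 and HOXA4 in particular, since other annotated genes cover 62.5% and 47.3% of their exon bases on either strand. It also bears on HOXB6 (32.9%), HOXA3 (17.9%), HOXB4 (17.1%), HOXC6 (15.7%) and HOXB3 (13.2%), and less on HOXB2 (3.72%) and HOXB5 (3.58%). HOXA2, HOXA5, HOXB7, HOXB8 and HOXC8 share no exon base with another gene.

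HOXA2, HOXA3 and HOXA4 were called lower than WT in at least 1 of the 2 ICM pairs (HOXA2 in ICM 3-4, given further on). The stretch before each gene's start is shown from the RefSeq promoter table (GRCh38.p14), 5′ to 3′ on the minus strand of chromosome 7. The stretches are not side by side. The HOXA3 stretch lies at the far start of its annotated gene (chr7:27106184-27152581), which spans HOXA4, HOXA5 and HOXA6. Which start was used in these cells was not tested. Capitals mark the CCAAT box (searched as CCAAT), the TATA box (searched as TATAAA) and a joint PBX and HOX site (searched as TGATTNAT), on either strand. HOXA2 is shown at chr7:27102812-27102933, HOXA3 at chr7:27152584-27152833 and HOXA4 at chr7:27130800-27131007.
HOXA2: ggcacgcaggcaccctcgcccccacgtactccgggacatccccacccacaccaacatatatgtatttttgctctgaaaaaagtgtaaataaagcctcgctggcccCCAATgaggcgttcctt
HOXA3: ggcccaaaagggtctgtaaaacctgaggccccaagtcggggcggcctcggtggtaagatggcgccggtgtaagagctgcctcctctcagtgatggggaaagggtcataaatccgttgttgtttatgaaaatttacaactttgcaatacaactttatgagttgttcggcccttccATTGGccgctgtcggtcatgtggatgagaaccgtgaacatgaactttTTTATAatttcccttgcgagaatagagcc
HOXA4: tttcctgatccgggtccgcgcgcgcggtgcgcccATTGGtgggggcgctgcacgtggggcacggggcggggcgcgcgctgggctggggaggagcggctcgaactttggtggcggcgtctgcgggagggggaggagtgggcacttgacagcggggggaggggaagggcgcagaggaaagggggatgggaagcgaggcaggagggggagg

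Each of the 3 stretches holds CCAAT on 1 of its strands, and HOXA3 also holds TATAAA. The stretches stop where an exon of a protein-coding gene begins, so HOXA2 shows 122 and HOXA4 208 of the 250 bases before the start. The bases of HOXA2 that are not shown hold further CCAAT matches at -67, -41 and -31 from the start, the first on the opposite strand. They also hold a TGATTNAT match at -114. The table has windows (250 bases before to 50 after the start) for 20 HOX genes, 19 of them distinct because HOXC4 and HOXC5 share 1, and for none of HOXB2 to HOXB8. Only the 250 bases before the start were searched, on both strands. There CCAAT was found for 17 of 20 HOX genes, against 33.0% of all 27305 promoters. CACGTG was found for 7 of 20 against 6.49%, TATAAA for 4 of 20 against 11.1% and TGATTNAT, a site bound by PBX and HOX proteins together, for 2 of 20 against 2.59%. GGGCGG was found for 10 of 20 against 42.3% and CCCTC, the repeat that CTCF is named for, for 14 of 20 against 65.7%. The windows cover active and silent HOX genes alike and a match describes letters only.

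In the second set, compared with the same WT libraries, the calls lay mostly in the HOXA cluster (3 of 4), while the summed HOXB and HOXC levels were above WT in both libraries. The 39 genes summed to 246 and 272 CPM in ICM 3 and 4, close to the 263 and 265 CPM of WT. By cluster, HOXA summed to 32.5 ± 10.3 CPM (WT 60.8 ± 1.34), HOXB to 219 ± 5.59 (WT 199 ± 0.868) and HOXC to 6.96 ± 2.09 (WT 4.06 ± 0.499; SD, n = 2). Against WT, 4 of the 21 genes were called lower and 0 higher, where 30.3% of all genes were called in either direction, so the share of HOX genes called was no higher than that of all genes. The median log2 fold change over the 21 genes was -0.22, against -0.02 over all genes.

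HOXA2 was 0.46 and 0.24 CPM in ICM 3 and 4, below the 3.07 and 3.24 of WT (log2 fold change -3.40, SE 0.79, adjusted p = 0.0109, edgeR). HOXA3 was 1.46 and 4.06 CPM, again below both WT values (-2.65, SE 0.67, adjusted p = 0.0161, edgeR). HOXA5 was 13.1 and 21.6 CPM (-1.07, SE 0.34, adjusted p = 0.0380, edgeR). HOXB4 was the only HOXB gene called, at 5.23 and 5.95 CPM (-1.89, SE 0.58, adjusted p = 0.0331, edgeR). HOXB6 was 67.2 and 55.4 CPM, above both WT values, and was not called (0.48, 95% interval -0.09 to 1.06). HOXB2 was 57.4 and 46.1 CPM (0.17, 95% interval -0.47 to 0.80) and HOXB5 16.9 and 19.5 CPM (-0.45, 95% interval -1.33 to 0.43). HOXB8 was also above both WT values and not called (0.43, 95% interval -0.59 to 1.45). HOXC6 and HOXC9 had the highest positive values of the 16 described genes, 1.13 (adjusted p = 0.0747) and 1.19 (adjusted p = 0.113, edgeR), at 1.88 and 3.39 CPM and at 0.92 and 1.26 CPM. HOXA4 showed how far the 2 libraries could differ, with 1.30 CPM in ICM 3 and 4.10 in ICM 4. The count of 4 fell to 1 when any of WT 1, WT 2, ICM 3 or ICM 4 was left out (1922 to 2602 of all genes, against 5797 with every library), and was 4 when the fit held the compared libraries alone, where 9021 of 18867 genes were called.

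**Figure D3:**
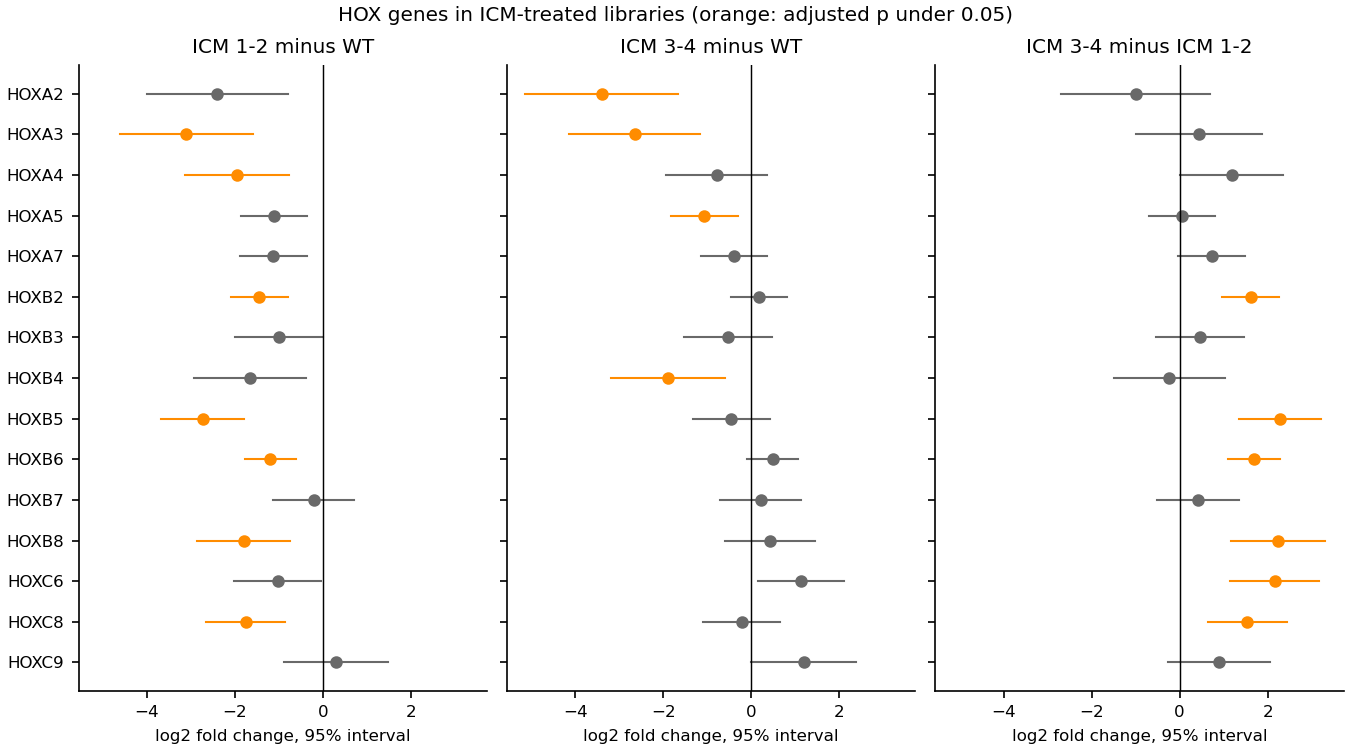
Log2 fold change (points) with its 95% interval (lines) for 15 of the described HOX genes in 3 comparisons, with genes called at an adjusted p under 0.05 in orange. HOXA3 lies left of 0 against WT in both sets (-3.10 and -2.65), while HOXB5 lies at -2.73 in ICM 1-2 and -0.45 in ICM 3-4.

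Since both ICM pairs were set against the same WT libraries, the comparison of ICM 3-4 with ICM 1-2 is also the test of whether their changes differed. In it, 7 of the 21 HOX genes were called higher in ICM 3-4 and 0 lower, where 19.5% of all genes were called in either direction. These were 4 HOXB and 3 HOXC genes, and 0 of the 9 HOXA genes tested. HOXB5 differed by 2.28 on the log2 scale (SE 0.42, adjusted p = 0.00587, edgeR), with 16.9 and 19.5 CPM in ICM 3 and 4 and 3.40 and 3.56 in ICM 1 and 2. HOXB6 differed by 1.68 (SE 0.27, adjusted p = 0.00335, edgeR) and HOXB2 by 1.61 (SE 0.30, adjusted p = 0.00585). HOXB8 was 3.64 and 6.39 CPM in ICM 3 and 4 against 1.15 and 0.79 (2.23, adjusted p = 0.0115, edgeR). In none of these 4 genes did the 2 ICM pairs overlap, which adds no support, since the genes were picked by the test on these same libraries. Among HOXC genes, HOXC6 differed by 2.16 (adjusted p = 0.0103), HOXC8 by 1.54 (adjusted p = 0.0262) and HOXC4 by 2.30 (adjusted p = 0.0381, edgeR), the last at 0.75 and 1.02 CPM against 0.16 and 0.17. HOXA3 (0.45, 95% interval -0.98 to 1.88) and HOXB4 (-0.24, 95% interval -1.49 to 1.02) gave wide intervals around 0. The count was 4 without ICM 1 and 3 without ICM 4, 6 and 5 without ICM 2 and ICM 3 (1 of the 6, HOXA2, lower), and 0 when the fit held the compared libraries alone. Over all genes the counts were 1477 and 1654, 6059 and 1206, and 239, against 3738 with every library.

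Over all 14 libraries, 3 of the 21 HOX genes, HOXA2, HOXA3 and HOXB4, had every ICM-treated library below every untreated one. The share over all genes tested was 8.72%. The gap was wide for HOXA3 (at most 4.06 CPM in treated and at least 12.4 in untreated libraries) and for HOXB4 (at most 9.26 against at least 15.4), and narrow for HOXA2 (at most 1.26 against at least 1.37). No HOX gene had all treated libraries above all untreated ones, which 9.23% of genes did. Ratios between neighbours, which need no library scaling and were picked after the values were seen, moved too. HOXA3 reads per HOXA5 read were 0.435 to 0.543 in the 4 untreated libraries and 0.058 to 0.296 in the 10 treated ones. HOXB6 reads per HOXB5 read were 1.40 to 1.95 in untreated and 2.31 to 6.35 in treated libraries. Neither range overlapped its counterpart, so these neighbours changed unequally.

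**Figure D4:**
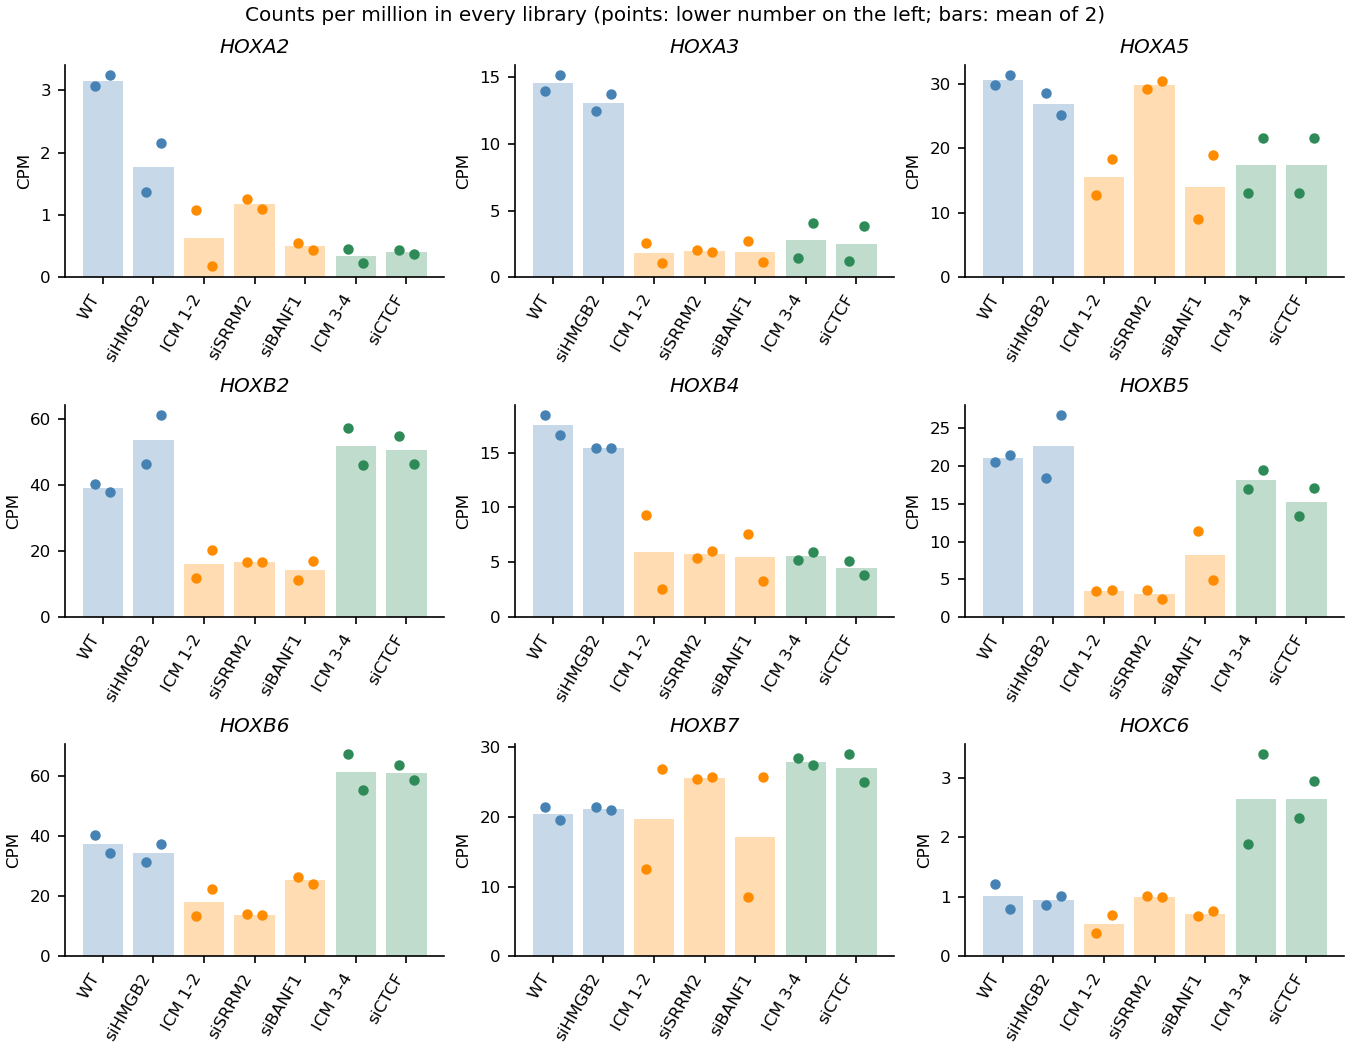
CPM of 9 HOX genes in every library (points) with the mean of each pair (bars), untreated groups in blue, first-set ICM groups in orange and second-set groups in green. HOXA3 and HOXB4 are low in all 10 treated libraries, while HOXB2, HOXB5 and HOXB6 are low in the first set and near or above WT in the second.

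Knockdown of HMGB2 in untreated cells gave no HOX call. The 39 genes summed to 243 and 297 CPM in siHMGB2 1 and 2 against 263 and 265 in WT. HOXA alone summed to 50.8 ± 1.35 CPM against 60.8 ± 1.34 in WT (SD, n = 2), with both knockdown libraries below both WT libraries. The median log2 fold change of its 9 tested genes was -0.77, but HOXA6, HOXA10 and HOXA11 among them were under 1 CPM in both groups (-1.22, -1.41 and -4.60). HOXA2 and HOXA7 were at -0.77 and -1.15, while HOXA3, HOXA4 and HOXA5 were at -0.09, 0.04 and -0.13, so the cluster did not fall evenly. None of the 21 HOX genes was called by edgeR (0 by DESeq2 as well), where 0% of all genes were called by edgeR (908 at an unadjusted p under 0.05, and 61 by DESeq2). At an unadjusted p under 0.05 there was 1 HOX gene. It was HOXA7, at 2.61 and 2.31 CPM in siHMGB2 against 7.06 and 4.25 in WT, with both knockdown values below both WT values (-1.15, SE 0.35, adjusted p = 0.762). When only these 4 libraries were fitted, 2 of 21 HOX genes were called, HOXA7 (-1.14, adjusted p = 0.00257, edgeR) and HOXB2 (0.52, adjusted p = 0.0106, edgeR), where 11.1% of all genes were called. HOXB2 was 46.3 and 61.3 CPM in siHMGB2 and 40.4 and 38.1 in WT. HOXA3 was 12.4 and 13.7 CPM and HOXB5 18.5 and 26.8, against 13.9 and 15.1 and 20.6 and 21.5 in WT. Their 95% intervals, -1.47 to 1.29 and -0.71 to 1.04, do not exclude a change of 2-fold.

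The libraries labelled siSRRM2 and siBANF1 were each compared with ICM 1-2. In those labelled siSRRM2, 0 of 21 HOX genes were called by edgeR or DESeq2, where 0.178% of all genes were called by edgeR, and 2 had an unadjusted p under 0.05, as had 2168 of all 19126 genes. These were HOXA5, at 29.2 and 30.5 CPM against 12.8 and 18.4 in ICM 1 and 2 (0.94, SE 0.34, adjusted p = 0.320), and HOXA10, at 0.045 and 0 CPM against 0.143 and 0.203. HOXA5 was thus as high in the libraries labelled siSRRM2 as in WT (29.8 and 31.3). HOXA3 (2.07 and 1.93 CPM), HOXB4 (5.39 and 6.01) and HOXB5 (3.53 and 2.44) lay within or near the range of ICM 1 and 2. In those labelled siBANF1, 0 of 21 were called by edgeR or DESeq2, where 0% of all genes were called by edgeR (591 at an unadjusted p under 0.05, and 18 by DESeq2), and HOXB5 alone had an unadjusted p under 0.05. Its levels were 11.4 and 4.91 CPM there, both above the 3.40 and 3.56 of ICM 1 and 2 (1.29, SE 0.41, adjusted p = 1). Without siBANF1 2 it was called (1.83, adjusted p = 0.0482), as were 81 of all genes, so that single library decided it.

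Knockdown of CTCF gave no HOX call. The 39 genes summed to 229 and 260 CPM in siCTCF 1 and 2 against 246 and 272 in ICM 3 and 4. Of the 21 genes, 0 were called by edgeR or DESeq2, and 0 had an unadjusted p under 0.05. Over all 19126 genes 0% were called by edgeR (125 with an unadjusted p under 0.05), and 0 by DESeq2. The log2 fold changes of the 16 described genes ran from -0.45 for HOXC9 (1.09 ± 0.241 CPM in ICM 3-4 and 0.791 ± 0.274 in siCTCF) to 0.22 for HOXA2. The narrowest interval was that of HOXB6, -0.59 to 0.56, and the widest that of HOXA2, -1.55 to 2.00, so changes of 2-fold and more are not excluded for most of the genes. CTCF itself was not called (-0.96, SE 0.52, adjusted p = 1, edgeR).

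For many of the described genes the values of siCTCF 1 were like those of ICM 3, and those of siCTCF 2 like those of ICM 4, a pairing that the labels do not give. HOXA3 was 1.21 and 3.85 CPM in siCTCF 1 and 2 and 1.46 and 4.06 in ICM 3 and 4. HOXA5 was 13.1 and 21.7 against 13.1 and 21.6, and HOXA4 1.34 and 3.29 against 1.30 and 4.10. HOXB3 was 31.7 and 56.4 CPM against 36.6 and 62.6. In each of these genes the spread between the libraries of a group was larger than the difference between the groups. HOXB2 (55.0 and 46.4 against 57.4 and 46.1 CPM) and HOXB6 (63.5 and 58.6 against 67.2 and 55.4 CPM) showed the same order, with the first library of each pair higher. HOXA7, HOXB4, HOXC8 and HOXC9 ran the other way, the higher library being the first in one group and the second in the other. Between siCTCF 2, the library with the larger fall in CTCF, and ICM 4 the described genes went both ways. HOXB4 was 3.81 CPM in siCTCF 2 against 5.95 in ICM 4, HOXC9 0.60 against 1.26 and HOXC8 1.72 against 2.40. Higher in siCTCF 2 were HOXA2 (0.37 against 0.24), HOXA7 (5.00 against 4.65), HOXB6 (58.6 against 55.4) and HOXB8 (6.61 against 6.39). HOXA5 (21.7 against 21.6) and HOXB2 (46.4 against 46.1) were nearly the same. These are single libraries and carry no test.

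**Figure D5:**
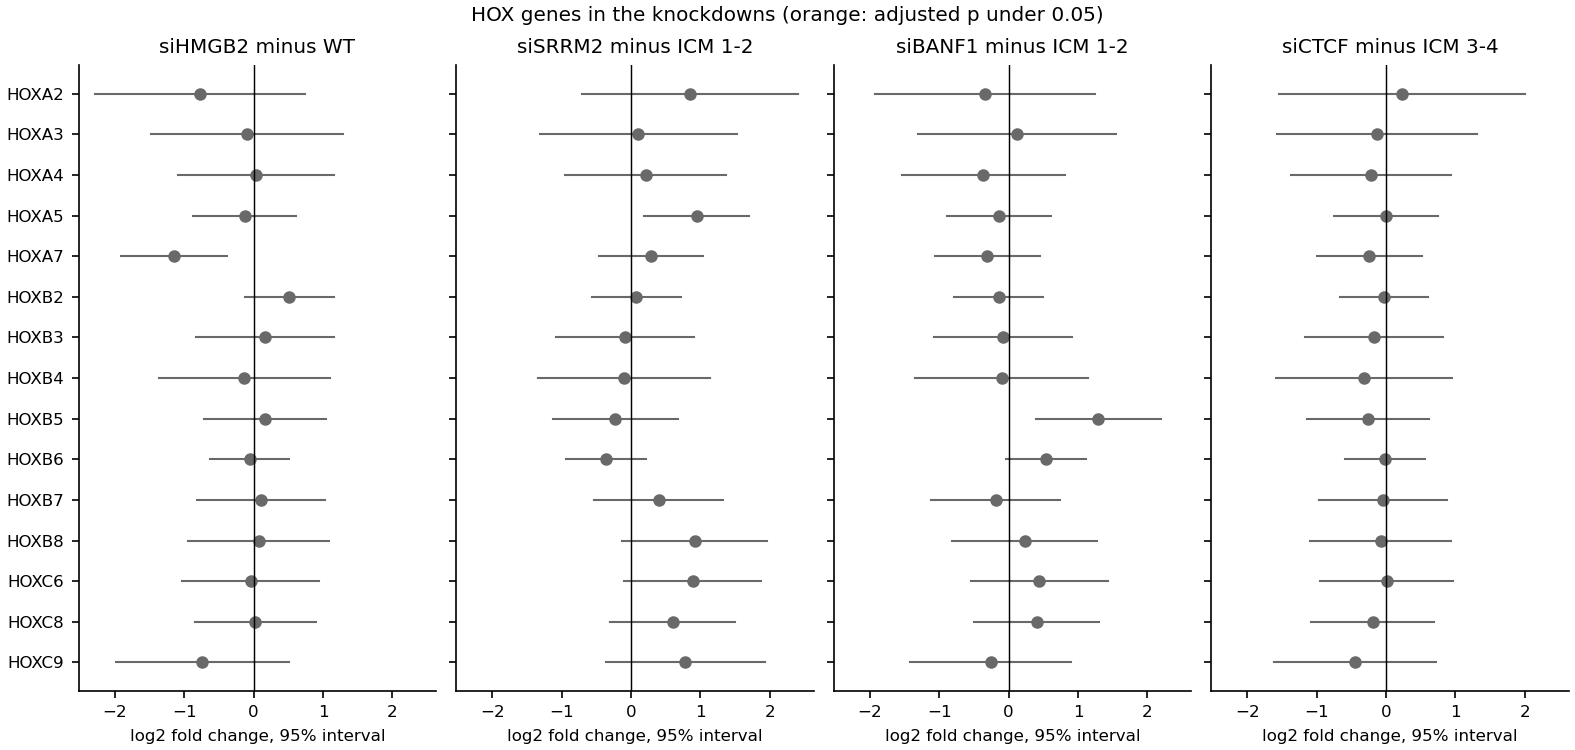
Log2 fold change (points) with its 95% interval (lines) for 15 of the described HOX genes in the 4 knockdown comparisons, none of them called at an adjusted p under 0.05. The siCTCF points lie between -0.45 and 0.22, and most intervals reach 1 unit from 0 on at least 1 side.

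The described genes also had the following levels in the groups where they have not been given, siSRRM2 and siBANF1 again naming labels only. HOXA2 was 1.37 and 2.16 CPM in siHMGB2, 1.26 and 1.10 in siSRRM2, 0.56 and 0.45 in siBANF1 and 0.45 and 0.37 in siCTCF. HOXA3 was 2.69 and 1.18 CPM in siBANF1. HOXA4 was 3.74 and 3.86 CPM in siHMGB2, 1.24 and 1.28 in siSRRM2 and 0.89 and 0.76 in siBANF1. HOXA3 and HOXA4 were thus low in siBANF1 as in ICM 1-2, while HOXA2 in siHMGB2 lay between WT and the treated libraries. HOXA5 was 28.6 and 25.2 CPM in siHMGB2 and 9.08 and 18.9 in siBANF1. HOXA7 was 3.53 and 3.44 CPM in siSRRM2, 1.93 and 2.59 in siBANF1, 5.44 and 4.65 in ICM 3-4 and 3.63 and 5.00 in siCTCF. HOXA5 was below WT in both siBANF1 libraries, and HOXA7 was below both WT values in both siSRRM2 and both siBANF1 libraries. HOXB2 was 16.7 and 16.7 CPM in siSRRM2 and 11.2 and 17.1 in siBANF1. HOXB3 was 52.4 and 77.6 CPM in siHMGB2, 31.1 and 30.8 in siSRRM2 and 39.4 and 20.8 in siBANF1. HOXB4 was 15.4 and 15.4 CPM in siHMGB2 and 7.61 and 3.31 in siBANF1, and 5.10 in siCTCF 1. HOXB2 and HOXB3 stayed below WT in every first-set library with ICM. HOXB5 was 13.3 and 17.1 CPM in siCTCF. HOXB6 was 31.5 and 37.5 CPM in siHMGB2, 14.2 and 13.7 in siSRRM2 and 26.4 and 24.2 in siBANF1. HOXB7 was 21.4 and 21.0 CPM in siHMGB2, 25.4 and 25.8 in siSRRM2, 8.47 and 25.7 in siBANF1, 28.4 and 27.4 in ICM 3-4 and 28.97 and 25.1 in siCTCF. HOXB7 was above WT in all 4 second-set libraries and in both siSRRM2 libraries, with no call in any comparison. HOXB8 was 2.40 and 3.91 CPM in siHMGB2, 1.98 and 1.73 in siSRRM2, 1.24 and 1.00 in siBANF1 and 2.95 and 6.61 in siCTCF. HOXC6 was 0.86 and 1.02 CPM in siHMGB2, 1.01 and 1.00 in siSRRM2, 0.68 and 0.76 in siBANF1 and 2.33 and 2.95 in siCTCF. HOXC8 was 1.80 and 2.06 CPM in siHMGB2, 1.08 and 0.87 in siSRRM2, 0.91 and 0.74 in siBANF1, 1.63 and 2.40 in ICM 3-4 and 1.79 in siCTCF 1. HOXC9 was 0.27 and 0.19 CPM in siHMGB2, 0.90 and 0.97 in siSRRM2 and 0.28 and 0.62 in siBANF1, and 0.98 and 0.60 CPM in siCTCF. All 3 HOXC genes stayed at or below 3.39 CPM in all 14 libraries.

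HOX proteins bind DNA together with TALE cofactors of the PBX, MEIS and PKNOX families, and some of these were lower in the ICM-treated libraries. All 9 cofactor genes were tested. In ICM 1-2, 1 was called lower than WT and 0 higher, and in ICM 3-4, 4 were called lower and 0 higher, beside the all-gene shares of 13.5% and 30.3%. MEIS1 was 111 and 122 CPM in WT, 97.3 and 40.3 in ICM 1 and 2 and 14.1 and 15.1 in ICM 3 and 4, a log2 fold change in ICM 3-4 of -3.24 (SE 0.45, adjusted p = 0.00131, edgeR). PBX2, at 1.40 and 1.78 CPM in WT, was called lower in ICM 1-2 (0.10 and 0.07 CPM, -4.26, adjusted p = 0.0037) and in ICM 3-4 (0.71 and 0.28 CPM, -1.91, adjusted p = 0.0339, edgeR). MEIS1 was lower in ICM 3-4 than in ICM 1-2 (-2.38, adjusted p = 0.00586, edgeR).

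Of 25 noncoding RNAs of the HOX clusters, 7 passed the filter. HOXB-AS1, which runs antisense across HOXB2 and HOXB3, was 4.32 and 5.84 CPM in WT, 1.89 and 1.69 in ICM 1 and 2 and 1.67 and 3.27 in ICM 3 and 4. It was called lower in ICM 1-2 (-1.63, adjusted p = 0.033) and in ICM 3-4 (-1.29, adjusted p = 0.0436, edgeR), the only call among the 7 in each comparison, beside 13.5% and 30.3% of all genes. The counting's strand setting is not given in the sources used here, so its reads cannot be separated from those of the genes it overlaps. HOTAIRM1, in the HOXA cluster, was 12.9 and 13.2 CPM in WT, 4.82 and 21.9 in ICM 1 and 2 and 26.1 and 60.6 in ICM 3 and 4, and was not called. Of 16 genes flanking the clusters, 10 were tested, with 1 called higher in ICM 1-2 (LNPK beside HOXD, 1.23, adjusted p = 0.0136, edgeR) and 3 called lower in ICM 3-4, including HIBADH and SKAP2 at the sides of HOXA (-1.09, adjusted p = 0.00965, and -0.92, adjusted p = 0.0257, edgeR). Neither count is a higher share of the 10 than the 13.5% and 30.3% over all genes.

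Among regulators of the clusters, the Polycomb list had 27 genes tested, with 1 called higher and 4 lower in ICM 1-2 and 3 higher and 3 lower in ICM 3-4. The shares of all genes called in these comparisons, 13.5% and 30.3% (19.5% between the ICM pairs), are the background for this and the next 3 lists, and the 6 of 27 in ICM 3-4 lie below theirs. EZH2, the enzyme that writes the repressive H3K27 mark, was called lower in ICM 1-2 (-1.84, SE 0.29, adjusted p = 0.00396, edgeR), at 4.41 and 7.20 CPM against 18.4 and 19.0 in WT. CBX2, a reader of that mark, was called lower in ICM 1-2 (-1.71, adjusted p = 0.00642) and in ICM 3-4 (-1.48, adjusted p = 0.00666, edgeR). The list of Trithorax proteins and HOX activators had 18 tested, with 1 higher and 3 lower in ICM 1-2 and 3 higher and 2 lower in ICM 3-4. Between the ICM pairs, 6 of these 18 were higher and 2 lower in ICM 3-4, led by KDM6B, which removes the H3K27 mark, at 171 and 243 CPM in ICM 3 and 4 against 30.4 and 9.97 in ICM 1 and 2 (3.20, SE 0.88, adjusted p = 0.0295, edgeR). Of 11 CTCF and cohesin genes, SMC1A alone was called lower in ICM 1-2 (-1.48, adjusted p = 0.00819, edgeR). In ICM 3-4, 1 was called higher (WAPL) and 1 lower (SMC1A). Of 11 retinoic acid genes tested, 1 was called lower in ICM 1-2 and 2 in ICM 3-4, including DHRS3, an enzyme that turns retinaldehyde back into retinol (-2.75, adjusted p = 0.0121, edgeR).

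Other transcription factors that mark a fibroblast's site also fell. Of 39 on the list, 24 were tested, and 7 were called lower in ICM 1-2 and 12 in ICM 3-4, with 0 higher in either, beside the all-gene shares of 13.5% and 30.3%. Their median log2 fold changes were -1.21 and -1.39, against 0.10 and -0.02 over all genes. PRRX2, a mesenchymal homeobox gene, had a mean of 56.5 CPM in WT, 5.07 in ICM 1-2 and 1.42 in ICM 3-4 (-3.56, adjusted p = 0.0393, and -5.53, adjusted p = 0.00616, edgeR). NR2F1, a nuclear receptor, had 221, 39.7 and 18.2 CPM (-2.58, adjusted p = 0.00707, and -3.84, adjusted p = 0.000962, edgeR). In the libraries labelled siSRRM2, siBANF1 and siCTCF, 0 of the 117 genes tested from these lists were called by edgeR against the ICM pair of the same set, and 27, 4 and 0 had an unadjusted p under 0.05.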

How the data were processed

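Per the labels' protocols, total RNA was extracted with Trizol and a column with DNase, and TruSeq libraries were read paired-end. The submitters' processing notes name hg38, STAR 2.7.3a, HTSeq 0.12.4 and DESeq2 1.36.0 with no role, and the annotation and strand setting are not given in the sources used here. The deposited files hold whole-number counts per gene symbol, 1 file per library. The 5 summary lines (12.8% to 41.8% of counts, 1.58% to 9.53% ambiguous) were left out.

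Members and lists were chosen with earlier results of these data known. CPM used the total gene counts. All 14 libraries entered 1 fit with 7 group means (edgeR 4.0.16, R 4.3.3, TMM, filterByExpr, 7 residual degrees of freedom), and p-values were adjusted by Benjamini-Hochberg over 19126 genes. Log2 fold changes, standard errors and intervals come from this fit. On simulated counts for siCTCF against ICM 3-4 (18119 genes) it called 28.1% of 4-fold and 68.9% of 16-fold changes. Genes with a group mean of at least 1 CPM were described in every library, and from each other list at most 3 called genes per comparison with the largest change, besides genes of note named after their values were seen (HOTAIRM1). A few genes that this rule takes are not reported here. Coordinates and exon lengths come from GENCODE v29 (GRCh38) and promoters from RefSeq. Alternatives were other scalings (relative log expression, total counts), no filter, DESeq2 1.42.0, only the compared libraries, a replicate block and leaving out each library.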

Additional observations from a re-analysis of the deposited data

Results flagged for a closer look

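The change of 7 HOX genes under ICM differed between the first pair of ICM libraries and the second, by the edgeR test of ICM 3-4 against ICM 1-2 over the same WT libraries, with p-values adjusted over all genes. On the log2 scale HOXB2 was higher in ICM 3-4 by 1.61 (SE 0.30), HOXB5 by 2.28 (SE 0.42), HOXB6 by 1.68 (SE 0.27) and HOXB8 by 2.23 (SE 0.49). HOXC4 was higher by 2.30 (SE 0.69), HOXC6 by 2.16 (SE 0.46) and HOXC8 by 1.54 (SE 0.41). Both libraries of ICM 3-4 lay above both of ICM 1-2 for all 7, which adds no support, since the genes were picked by the test on these same libraries. Over all genes tested, 19.5% were called in this comparison in either direction. The set of libraries and anything else that differed between the pairs cannot be told apart. Groups held 2 libraries each, too few for a check of single outlying libraries.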

How the results depend on the processing

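HOX genes called in ICM 1-2 against WT numbered 7, 11 with DESeq2, 0 with only the compared libraries fitted and 1 to 9 when a library was left out. In ICM 3-4 against WT the 4 became 1 when any library was left out, and in ICM 3-4 against ICM 1-2 the 7 became 0 with only the compared libraries and 3 to 6 with a library left out. For siHMGB2 against WT the 0 became 2 with only the compared libraries, and for siBANF1 0 to 1 with a library left out. Over all genes tested the counts moved as well, and ICM 1-2 against WT gave 33 with only the compared libraries. With the replicate block, which used only the compared libraries, the calls were 3 for ICM 1-2 and 2 for siHMGB2, and 0 for siSRRM2, siBANF1 and siCTCF. Over all genes those fits called 1445 of 19117 for ICM 1-2 and 2314 of 18623 for siHMGB2. For siSRRM2, siBANF1 and siCTCF they called 105, 1 and 4 genes. The labels do not say that numbers mark shared cultures. The correlation of same-numbered deviations was -0.08 for ICM 1-2 with WT, 0.06 for siHMGB2, 0.81 for siBANF1 and 0.48 for siCTCF (matched by rank). Total count scaling moved the median of all genes from 0.10 to 0.24 in ICM 1-2 and from -0.02 to 0.18 in ICM 3-4. The HOX calls there stayed at 7 and 4, of which 1 was higher in ICM 3-4 (HOXC6). Of single described genes, the called ones gave 160 results under the alternatives, of which 102 kept the call, 58 lost it and 0 changed direction, and 21 results of uncalled genes gained 1. The cause was not tested. Genes near 1 CPM, such as HOXC9 and HOXA2, rest on few counts.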

Other observations

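Members below the level described above also differed between libraries. HOXA11, a gene of the forearm and the uterus, had no count in WT 1, both siHMGB2 libraries and ICM 1, and was 0.774 CPM in ICM 2 and 0.669 in siBANF1 2, the libraries with the highest values. HOXC5 was under 0.1 CPM in all 4 untreated libraries and 0.224 to 0.448 CPM in the 4 libraries of the second set. In the treated libraries of the first set it ran from 0.0205 CPM in ICM 1 to 0.223 in siBANF1 2, so it came up to the second set. HOXC5 shares 59.9% of its exon bases with other annotated genes. HOXC10 had 4 counts over all libraries, each in a treated one, where 10 of the 14 libraries were treated. HOXD13 had 2, in WT 1 and siBANF1 2. Such counts are too few to compare groups.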
